A study of Mus musculus with 2 samples.

Results

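Immediate-early-high MuSCs are muscle stem cells in which the transcription factor genes Fos, Jun and Egr1 give a higher share of the captured transcripts than in most MuSCs. They were chosen by a rule on the UMI counts of both libraries, where a UMI (unique molecular identifier) tags 1 captured transcript. A cell was taken as a MuSC if it had at least 2000 UMIs, under 10% mitochondrial UMIs, at least 2 UMIs from Pax7, Myf5 and Myod1 together, no Pdgfra UMI, and under 2% of its UMIs from the fibre genes Acta1 and Ckm. MuSCs under 1000 CPM (UMIs of a gene per 1000000 UMIs of the cell) of Hist1h1b, Hist1h2ap and Hist1h2ae, and under 1000 CPM of Ube2c, Ccnb1, Cdc20 and Cenpf, are called non-cycling here. Of these, the cells with at least 4000 CPM of Fos, Jun and Egr1 together were kept. The rule found 67 of the 4954 cells of the series, 8 of 86 non-cycling MuSCs in sham and 59 of 983 in MOV. The remaining 78 sham and 924 MOV non-cycling MuSCs, called other MuSCs below, served as the comparison.

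The study sequenced single MuSCs sorted from the plantaris of mice after sham surgery or 5 days of mechanical overload (MOV), in which the synergist muscles are removed so that the plantaris grows. Both groups were Pax7 rtTA; TRE-H2B-GFP mice of 26 weeks that drank doxycycline at 2.0 mg/mL in 2% sucrose for 2 weeks, according to the labels. In these mice the Pax7 locus drives the doxycycline-dependent activator, so a nuclear GFP-histone label depends on Pax7 expression at the time of the drug. The labels speak of a mouse for each library while the methods give 8 mice per surgery group without saying whether they were pooled, and the sort is given as VCAM+ without CD31, CD45 and SCA1 in the methods and as GFP in the text of the series. There was 1 library for each condition, so no difference below has a replicate check, no test was made, and each interval (95%) covers counting error only.

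Fos, Jun and Egr1 belong to the immediate-early genes, which are transcribed within minutes of a stimulus from factors that already wait in the cell, and whose transcripts are short-lived. FOS and JUN pair as the AP-1 factor, EGR1 is a zinc finger factor, and a second layer of their targets encodes inhibitors that shut the signal off, such as SOCS3 for cytokine receptors, dual-specificity phosphatases for MAP kinases and ZFP36 for unstable mRNAs. Growth factors, cytokines, stretch and the dissociation of tissue are all known to induce these genes, and freshly isolated MuSCs are known to express them.

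Among the early response genes outside the gate, the immediate-early-high MuSCs of MOV had 29 of 70 measured genes higher by 2-fold or more, beside 3.35% of all genes measured. The 250 bases before the start of 8 of the 25 of these 29 with a RefSeq window held the letters GCGGGGGCG, a known EGR binding site. Among the other early response genes measured, 1 of 32 windows held it (Nab1), and over all genes it was in 692 of 27025 windows, or 2.56%. The median GC content was 64.8% in the windows of the 25 genes, 64.6% in those of the 32 and 52% over all genes. The 8 genes were Fosb, Fosl2, Klf2, Klf4, Nr4a1, Zfp36, Socs3 and Lifr. Windows of 5 of them, picked by hand, are printed as examples. Each is given 5′ to 3′ on the strand of the gene, from RefSeq on GRCm38.p6, the build of the matrices, and the capitals mark the sites found. Zfp36 (chr7:28379229-28379478, minus strand) held the EGR site, a serum response element (CArG box) and a STAT site, TTCNNNGAA. Socs3 (chr11:117969367-117969616, minus strand) held the EGR site and a STAT site. Fosb (chr7:19310046-19310295, minus strand) held the EGR site and an NF-kB site, and Nr4a1 (chr15:101266596-101266845, plus strand) and Klf2 (chr8:72318812-72319061, plus strand) the EGR site alone.
Zfp36: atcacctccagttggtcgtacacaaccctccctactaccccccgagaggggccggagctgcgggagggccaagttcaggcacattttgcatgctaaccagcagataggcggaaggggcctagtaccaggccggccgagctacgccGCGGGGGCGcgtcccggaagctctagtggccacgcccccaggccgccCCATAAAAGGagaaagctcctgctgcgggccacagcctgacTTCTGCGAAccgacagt
Socs3: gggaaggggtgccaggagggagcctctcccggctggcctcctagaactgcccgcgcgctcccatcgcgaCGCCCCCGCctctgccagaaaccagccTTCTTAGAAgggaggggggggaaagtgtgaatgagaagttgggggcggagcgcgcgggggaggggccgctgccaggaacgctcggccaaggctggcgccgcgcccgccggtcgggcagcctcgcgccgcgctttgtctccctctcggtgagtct
Fosb: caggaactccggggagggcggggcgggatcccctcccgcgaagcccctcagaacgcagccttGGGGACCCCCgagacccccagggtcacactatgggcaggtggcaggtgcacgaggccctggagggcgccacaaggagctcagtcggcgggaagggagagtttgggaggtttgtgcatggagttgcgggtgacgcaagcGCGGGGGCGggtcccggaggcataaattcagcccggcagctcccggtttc
Nr4a1: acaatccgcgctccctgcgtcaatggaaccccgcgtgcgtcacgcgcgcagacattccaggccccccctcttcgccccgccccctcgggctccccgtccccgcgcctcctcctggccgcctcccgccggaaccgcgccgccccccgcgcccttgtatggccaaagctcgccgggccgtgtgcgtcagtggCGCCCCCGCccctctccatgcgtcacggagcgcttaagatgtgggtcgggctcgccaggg
Klf2: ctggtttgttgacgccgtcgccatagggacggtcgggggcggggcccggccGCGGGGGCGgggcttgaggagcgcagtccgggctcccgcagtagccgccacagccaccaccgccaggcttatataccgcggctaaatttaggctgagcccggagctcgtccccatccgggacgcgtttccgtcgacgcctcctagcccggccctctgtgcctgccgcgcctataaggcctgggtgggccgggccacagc
Both strands were searched, and no 2 of the marked sites overlapped. A serum response element was found in 2 of the 25 windows (Zfp36 and Dusp5), in 0 of the 32 and in 1.40% of all windows. The STAT site was in 3 of 25 (Zfp36, Socs3 and Icam1), 2 of 32 and 7.18% of all, the AP-1 site TGANTCA in 1 of 25, 3 of 32 and 6.87% of all, the CRE TGACGTCA in 1 of 25, 1 of 32 and 1.62% of all, and the NF-kB site in 3 of 25, 6 of 32 and 3.75% of all. These counts describe letters in 1 window per gene and were not tested.

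In MOV the members formed the upper end of a continuous range of Fos, Jun and Egr1 levels, not a separate cloud. The 8 sham members were too few and too widely spaced to tell this for sham. In MOV, the members held between 4020 and 25546 CPM of the gate genes with a median of 7001, and the cells just outside the threshold had 3931, 3931 and 3984 CPM against 4020, 4063 and 4099 just inside. In sham the members ran from 4645 to 30047 CPM (median 13346), and the nearest cells lay at 2528, 3456 and 3765 CPM outside and at 4645, 6040 and 7946 inside. Median levels of the other MuSCs were 552 CPM in MOV and 650 CPM in sham. Jun led in 27 of the 59 MOV members, Fos in 22 and Egr1 in 8, with 2 ties, and in sham Fos led in 3, Jun in 3 and Egr1 in 2. All 3 genes had a UMI in 58 of 59 MOV and 7 of 8 sham members. These values chose the cells and are given as a description.

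The rule asked for UMIs of Pax7, Myf5 and Myod1, so the levels of these genes describe the choice of cells. Pax7, the factor that marks MuSCs, had a UMI in 53 of 59 MOV and 8 of 8 sham members, and Pax7 or Myf5 in 55 of 59 and 8 of 8. Summed over cells, Pax7 stood at 207 CPM in the MOV members against 72.1 CPM in the other MuSCs, and at 501 against 158 CPM in sham. Myod1, the factor of activated and committed MuSCs, stood at 181 against 175 CPM in MOV. In sham it had no UMI in the 8 members, which allows up to 71.6 CPM over the group, while the other sham MuSCs stood at 808 CPM. Of myogenic genes that the rule did not use, Des, the intermediate filament of muscle cells, had a UMI in 59 of 59 MOV and 7 of 8 sham members, and Cdh15, a cadherin of MuSCs and myoblasts, in 58 of 59 and 5 of 8.

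Endothelial, leukocyte, Schwann and erythroid markers were at or near 0 in the members, while UMIs of fibre and fibro-adipogenic markers were found in most members of both libraries and those of mural markers in most MOV members. Pecam1 of endothelial cells and Ptprc of leukocytes had 0 UMIs in all 67 cells. In MOV the summed levels of the endothelial, immune, Schwann and erythroid lists were 4.07, 28.5, 6.51 and 2.44 CPM in the members and 9.67, 31.3, 1.81 and 2.50 CPM in the other MuSCs, and in sham the members stood at 0, 23.9, 0 and 0 CPM. Of the listed genes, 5 of 7 endothelial, 3 of 10 immune, 2 of 6 Schwann and 4 of 5 erythroid markers were at 0 in the MOV members. The tenocyte list ran from 0 to 13625 CPM per MOV member with a median of 54.4, and 1 cell carried 60 of the 66 Fmod UMIs, 207 of the 232 Thbs4 UMIs, 256 of the 496 Dcn UMIs and 949 of the 2251 Mgp UMIs of the group. The myofibre list ran from 0 to 23715 CPM with a median of 199, and another single cell carried 447 of 537 Tnnc2 UMIs, 71 of 75 Casq1 UMIs and 84 of 237 Myog UMIs. The part of these 2 cells was measured by leaving out every MuSC over 5000 CPM of the tenocyte, fibro-adipogenic or myofibre list: 57 MOV members remained, and 26 early response genes in place of 29 were higher by 2-fold or more. In sham the myofibre list had a UMI in 8 of 8 members and 77 of 78 others, and summed to 1193 CPM in the members and 810 CPM in the others (median cells of 1140 and 780 CPM). Mural genes had a UMI in 54 of 59 MOV members and 866 of 924 others, at summed levels of 732 and 1107 CPM, nearly all of it Acta2, and in 1 of 8 sham members. The fibro-adipogenic list summed to 524 CPM against 283 CPM in MOV and 501 against 558 CPM in sham, where the highest member reached 2781 CPM and the highest other MuSC 13290 CPM. In sham 0 of 8 members and 2 of 78 other MuSCs were over 5000 CPM of the tenocyte, fibro-adipogenic or myofibre list. Leaving out such cells kept all 26 main counts, shares and list medians of both libraries within the limits given in the last section. The part of these markers below 5000 CPM in the sham results was not tested.

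The sham library was shallower than the MOV library. The sham members held a median of 5173 UMIs and the other sham MuSCs 8824, against 18651 and 20055 in MOV, and the mitochondrial share was 6.24% and 5.65% in sham and 2.75% and 3.24% in MOV. Ribosomal protein genes made up a median of 24.1% of the UMIs of the members and 23.0% of the others in sham, and 23.7% and 25.4% in MOV. A total of 44 barcodes occurred in both libraries, each at least 23.1 times deeper in one of them. None was a member, but 6 were other sham MuSCs with 29.97% of the UMIs of that group. Without them, 35 genes in place of 44 were higher and 115 in place of 123 lower in the sham comparison, and the MOV comparison was the same in both counts.

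**Figure D1:**
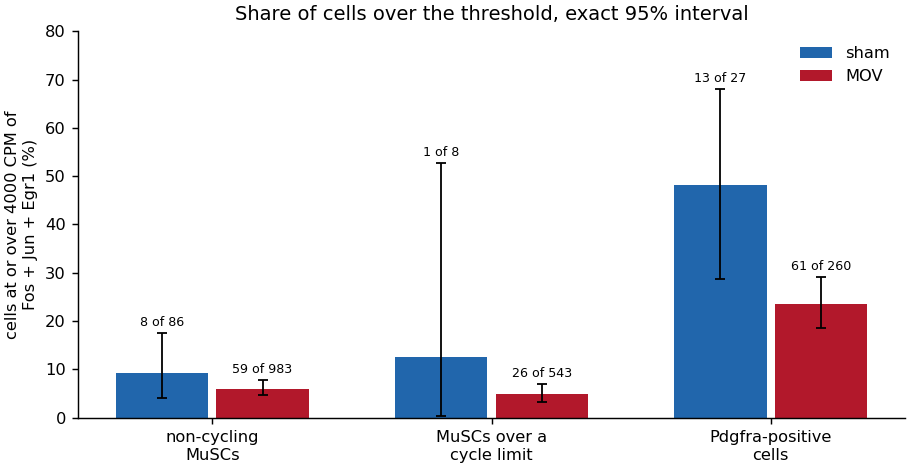
Share of cells (%) with at least 4000 CPM of Fos, Jun and Egr1 in sham (blue) and MOV (red), with exact 95% intervals that cover counting error only. The numbers over the bars are cells over the threshold of all cells of the class, and the Pdgfra-positive cells have the highest share in both libraries.

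High levels of the gate genes were found in a smaller share of MuSCs than of Pdgfra-positive cells, the stromal fibro-adipogenic cells of the same libraries. Of the non-cycling MuSCs, 9.30% (4.10 to 17.5%) in sham and 6.00% (4.60 to 7.67%) in MOV were over 4000 CPM. Of the MuSCs over a cycle limit, 1 of 8 in sham and 26 of 543 in MOV (4.79%, 3.15 to 6.94%) were. Among cells with at least 2 Pdgfra UMIs, no Pax7, Myf5 or Myod1 UMI and both cycle sums under the limit, the share was 13 of 27 or 48.1% (28.7 to 68.1%) in sham and 61 of 260 or 23.5% (18.4 to 29.1%) in MOV. Within each library the intervals of the Pdgfra-positive cells and of the non-cycling MuSCs did not overlap. The intervals cover counting error in 1 library per condition. They hold no spread between animals, so no difference between sham and MOV is read from them.

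**Figure D2:**
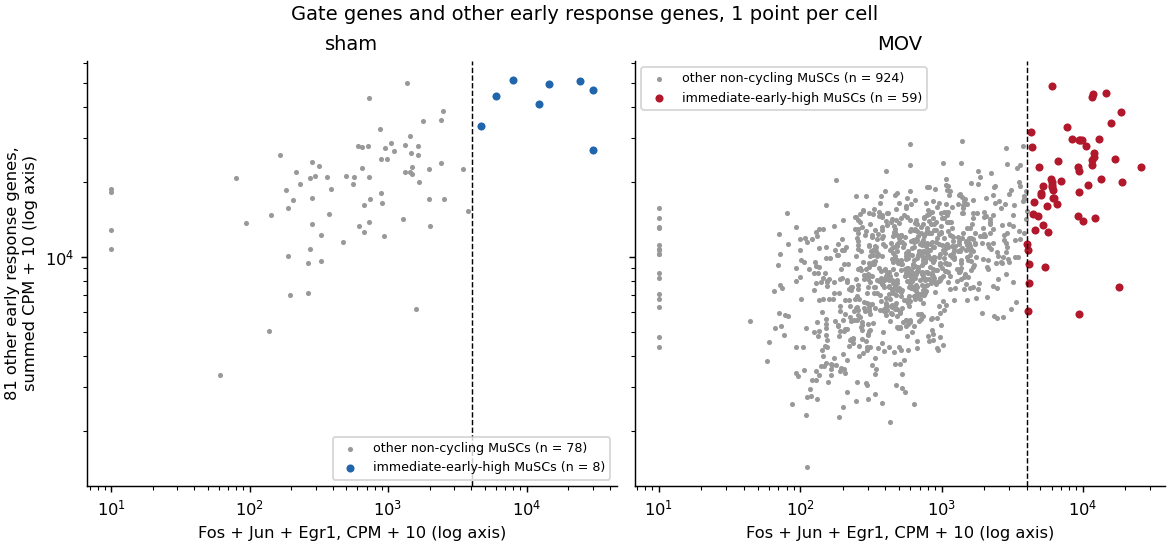
Each point is a non-cycling MuSC, with the summed CPM of Fos, Jun and Egr1 (x, log axis, 10 added) against the summed CPM of 81 other early response genes (y, log axis, 10 added) in sham (left) and MOV (right). The dashed line is the threshold of 4000 CPM. In MOV 55 of 59 members (red) and in sham 8 of 8 (blue) lie over the median of the other MuSCs (grey).

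The other early response genes were high in the same cells. Summed over the 81 genes of the early response lists outside the gate, MOV members ran from 5884 to 48610 CPM with a median of 19945, and the other MuSCs from 1425 to 29313 with a median of 9102. In sham the members ran from 26892 to 51252 CPM (median 45449) and the others from 3339 to 50224 (median 19861). The groups overlapped in both libraries. In MOV 55 of 59 members lay over the median of the other MuSCs and 13 over the highest of them, while 17 other MuSCs (1.84%) lay over the median member. In sham the counts were 8 of 8, 2, and 1 cell (1.28%). Across the 59 MOV members, the gate sum and the sum of the 81 genes had a Pearson correlation of 0.42 on the log2 scale and a Spearman correlation of 0.50. The cells share a library and their CPM share a denominator, and these correlations are descriptions. The same gate sum had a Spearman correlation of -0.14 with the UMIs of the cell.

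Gene by gene, UMIs were summed over the cells of each group, and a gene counts as higher or lower when the ratio of the CPM is 2-fold or more and at least 10 UMIs were expected in each group. In MOV 258 of 7695 such genes were higher in the members (3.35%) and 189 lower (2.46%), with a median log2 ratio of 0.05. Of the 81 early response genes 70 were measured at this depth, of which 29 were higher, 1 lower and the median log2 ratio was 0.88. In sham 568 genes were measured, 44 higher (7.75%) and 123 lower (21.7%), with a median of -0.23. Of the early response genes 23 were measured, 10 higher and 4 lower, with a median of 0.80. The expected UMIs came from the pooled rate of both groups, which the far deeper group of other MuSCs sets, so a gene high in the few sham members could miss the limit (Atf3, Socs3 and Nr4a1 did) and a gene absent from them could pass it (Fosl1 and Timp1 did). When the limit was put on the mean of the rates of both groups instead, an alternative chosen after the data were seen, 89 of 549 sham genes were higher (16.2%) and 68 lower (12.4%), with a median of -0.0022 and with 21 of 31 early response genes higher and 2 lower. In MOV it gave 407 of 7920 genes higher (5.14%) and 141 lower (1.78%), with 32 of 74 early response genes higher. The balance of higher and lower genes over all genes therefore depended on this limit and is not read as a result. Other scaling factors moved all sham log2 ratios by 0.21 (TMM) or 0.25 (median of ratios), and with TMM 59 sham genes were higher and 95 lower. The rule chose the members on cells of the same libraries, so these ratios describe what went with high Fos, Jun and Egr1 and are no independent test of it.

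**Figure D3:**
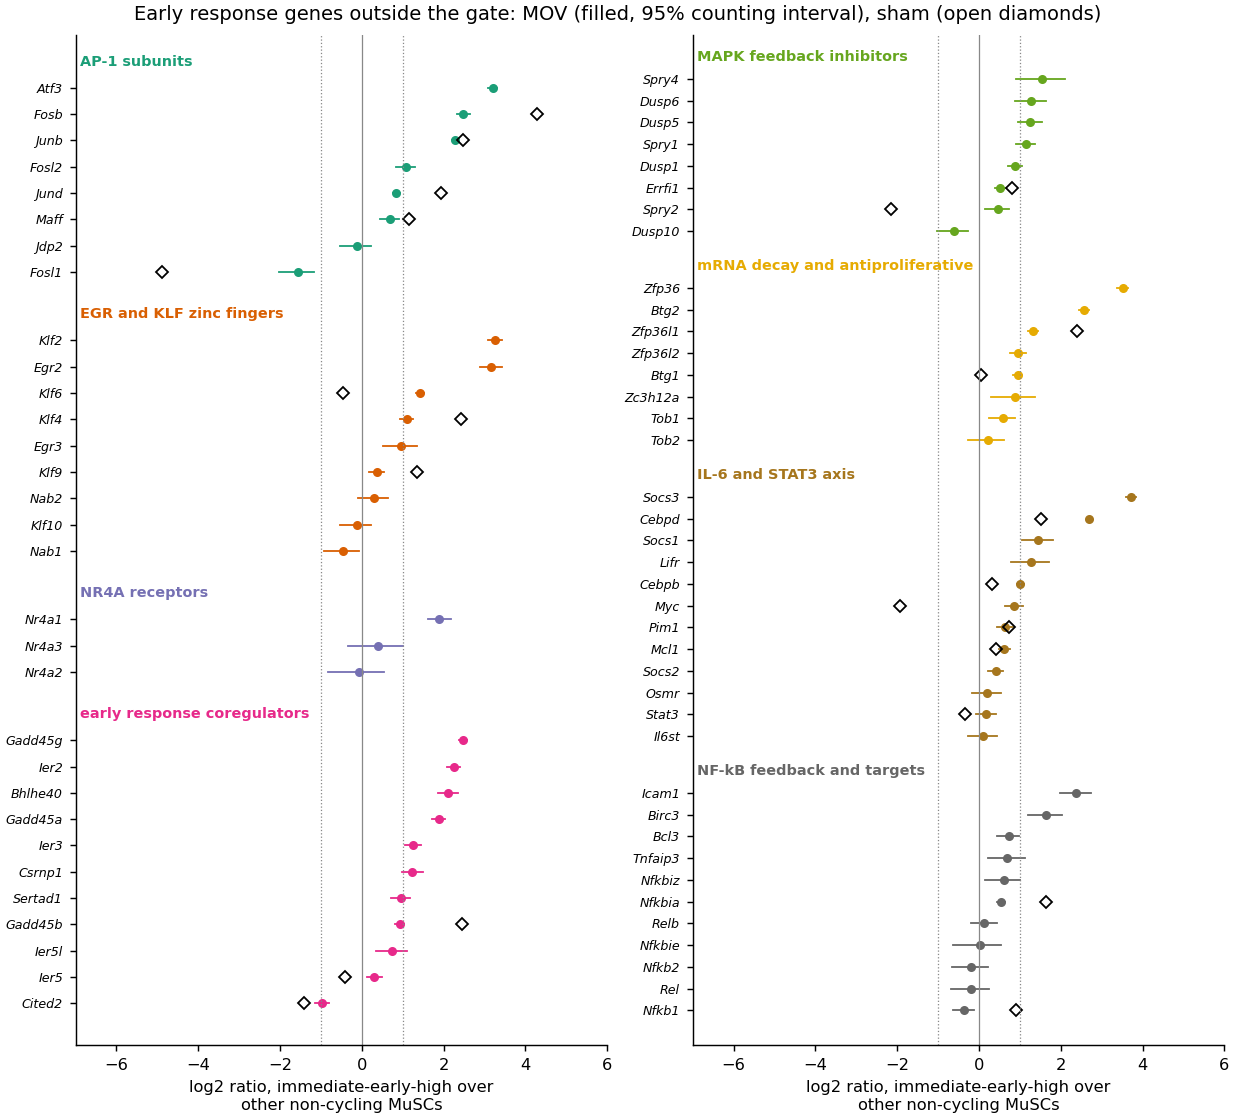
Log2 ratio of CPM, immediate-early-high over other non-cycling MuSCs, for the 70 early response genes measured in MOV (filled points, with 95% counting intervals) and, where measured, in sham (open diamonds). Dotted lines mark 2-fold. Socs3 (3.71), Zfp36 (3.51) and Klf2 (3.26) lead in MOV, and the diamond of Fosl1 stands for a gene without UMIs in the sham members, so that its place depends on the 0.5 added to the counts.

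Of the AP-1 subunits outside the gate, 4 of 8 were higher in MOV and 1 lower. Beside this and the lists that follow, 3.35% of all genes measured in MOV were higher and 2.46% lower. Atf3, a stress-induced partner of JUN, stood at 745 CPM in the MOV members and 81.3 in the other MuSCs (log2 ratio 3.20, 3.08 to 3.31), and at 1980 CPM (83 UMIs) against 105 CPM in sham. After thinning of each cell to 2000 UMIs, which no cell fell short of, Atf3 had a UMI in 31 of 59 MOV members (52.5%, 39.1 to 65.7%) against 13.0% of the others, and in 6 of 8 sham members (75%) against 15.4%. Both libraries therefore placed Atf3 higher in the members at equal depth. Fosb, a relative of FOS, stood at 335 CPM against 59.9 in MOV (2.48) and at 3769 against 193 in sham (4.29). The sham level rested on 158 UMIs in 8 of 8 cells, with 79 of them in 1 cell, and without that cell the ratio was 3.59. Junb, which often restrains JUN, stood at 2317 against 480 CPM in MOV (2.27) and 3173 against 575 in sham (2.47), the most even pair of ratios of the subunits. Fosl2 was higher by 1.08 in MOV, Jund by 1.93 in sham and by 0.84 in MOV, short of 2-fold. Fosl1, a FOS relative of proliferating and invading cells, stood the other way, at 39.1 against 117 CPM in MOV (-1.57, -2.03 to -1.18). In sham Fosl1 had 0 UMIs in the members against 354 CPM in the others, at least 4.95-fold lower taking 3 counts over the group as the floor.

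Among the EGR and KLF zinc fingers 4 of 9 were higher in MOV. Egr2, a close relative of EGR1, stood at 137 against 15.3 CPM (3.16, 2.89 to 3.42) with a UMI in 50 of 59 members, and at 191 CPM (8 UMIs) against 26.5 in sham. Klf2, a factor of quiescence in several cell types, stood at 376 against 39.3 CPM in MOV (3.26), but had 2 UMIs in 1 of the 8 sham members. Klf4 stood at 267 against 125 CPM in MOV (1.10) and 1598 against 300 in sham (2.42), and Klf6 at 891 against 332 CPM in MOV (1.42) and 191 against 280 in sham (-0.47, -1.78 to 0.45). Egr3 (0.96) and the EGR corepressors Nab2 (0.30) and Nab1 (-0.46) stayed under 2-fold in MOV. Of the NR4A orphan receptors, Nr4a1 stood at 103 against 27.8 CPM in MOV (1.90) and at 835 CPM (35 UMIs) against 30.8 in sham, while Nr4a2 (-0.07) and Nr4a3 (0.40) had intervals that held 0 in MOV.

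Inhibitors of the early response differed among themselves. Socs3, Zfp36 and Btg2 were over 2-fold higher in MOV, while the inhibitors Dusp1 (0.89), Tnfaip3 (0.70), Nfkbia (0.54), Errfi1 (0.52) and Socs2 (0.41) stayed under it. Socs3, the inhibitor of the IL-6 family receptors, stood at 677 CPM against 51.6 (3.71, 3.59 to 3.84), with a UMI in 52 of 59 members against 399 of 924 others. At 2000 UMIs per cell the shares were 52.5% and 8.87%. In sham Socs3 stood at 644 CPM (27 UMIs) against 26.5, and at equal depth in 7 of 8 members against 5.13% of the others. No cell type known to lack Atf3 or Socs3 was set beside the members. At 2000 UMIs per cell, 37.3% of the Pdgfra-positive cells of MOV had an Atf3 UMI and 25% a Socs3 UMI. In sham Atf3 was seen in 19 of 27 Pdgfra-positive cells (70.4%), near the 6 of 8 members (75%). Socs3 was seen there in 12 of 27 (44.4%) against 7 of 8 members. Zfp36, which destabilizes AU-rich mRNAs, stood at 541 against 47.4 CPM in MOV (3.51) and 453 CPM (19 UMIs) against 88.1 in sham. At 2000 UMIs per cell, Zfp36 had a UMI in 31 of 59 MOV members against 10.5% of the others. In sham it was seen in 1 of 8 members against 26.9% at that depth, and in 5 of 6 against 26.0% at 4000 UMIs. Zfp36l1, a relative of Zfp36, stood at 500 against 201 CPM in MOV (1.31) and 2314 against 445 in sham (2.39). Btg2, an antiproliferative partner of the mRNA deadenylases, stood at 598 against 101 CPM in MOV (2.57) and 1193 CPM (50 UMIs) against 107 in sham. Of the 8 MAP kinase inhibitors measured in MOV, Spry4 (1.55), Dusp6 (1.27), Dusp5 (1.26) and Spry1 (1.14) were higher by 2-fold and Dusp10 (-0.62) stood lowest. In sham 2 of the 10 listed were measured, of which Errfi1 stood at 0.80 and Spry2 at -2.16, from 2 UMIs in the members.

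The IL-6 and STAT3 list had 5 of 12 genes higher in MOV and none lower. Besides Socs3 these were Cebpd, a STAT3 target that encodes a C/EBP factor, at 2452 against 379 CPM (2.69) and in sham at 2791 against 986 CPM (1.51), Socs1 (1.45), the LIF receptor Lifr (1.28) and Cebpb (1.01). The shared receptor chain Il6st (0.11), Osmr (0.20) and Stat3 itself (0.18) had intervals that held 0. In sham 6 genes of the list were measured, with Cebpd alone higher and Myc alone lower. Myc stood at 119 CPM (5 UMIs) against 503 in sham (-1.94, -3.71 to -0.84) and at a ratio of 0.87 in MOV. Il6 was at 36.6 CPM, from 45 UMIs in 11 of the 59 MOV members, against 5.28 CPM, below the depth set for a call, and had 0 UMIs in the sham members. Of the NF-kB list 2 of 11 were higher, the adhesion gene Icam1 (2.37) and the survival gene Birc3 (1.64), while the inhibitor Nfkbia stood at 633 against 437 CPM in MOV (0.54) and at 1312 against 427 CPM in sham (1.63). Among 11 coregulators, 6 were higher in MOV: Gadd45g (2.47), Ier2 (2.25), Bhlhe40 (2.11), Gadd45a (1.88), Ier3 (1.26) and Csrnp1 (1.24). Gadd45g, a stress sensor of the p38 pathway, stood at 985 CPM in the MOV members and had 2 UMIs, both in 1 cell, in the sham members. Gadd45b stood at 1145 against 212 CPM in sham (2.44) and at 511 against 270 CPM in MOV (0.92). Cited2, a corepressor of hypoxia-driven transcription, had a ratio of -0.97 in MOV and -1.42 in sham. Single cells carried some of these ratios: of the 29 genes, 26 remained over 2-fold without the member with the most UMIs of the gene, and 22 when single-cell CPM were averaged, among them Atf3, Socs3, Zfp36, Klf2, Egr2 and Btg2. The 7 that fell under 2-fold when averaged were Klf4, Spry1, Fosl2, Zfp36l1, Lifr, Dusp5 and Cebpb, at 0.86 to 0.98.

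**Figure D4:**
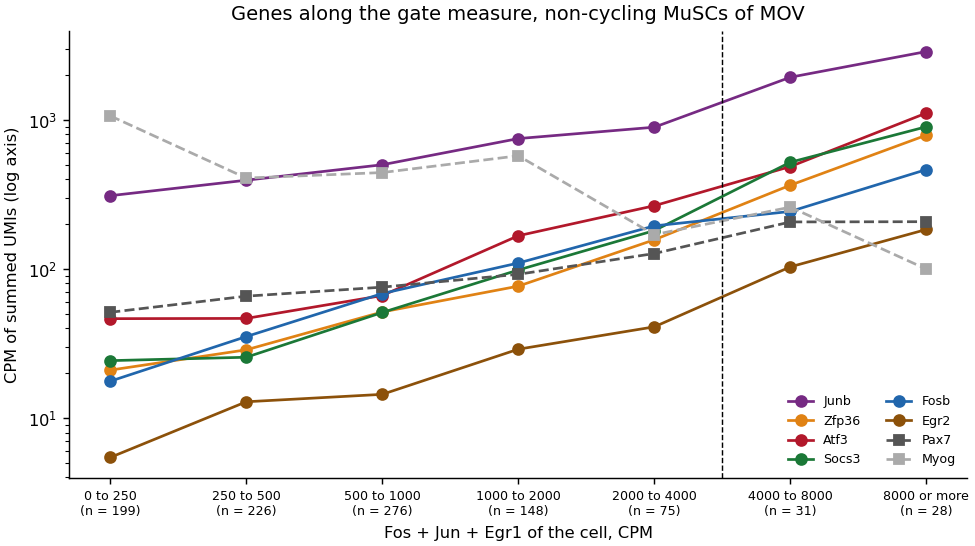
CPM of summed UMIs (log axis) of 6 early response genes (circles) and of Pax7 and Myog (squares) in non-cycling MOV MuSCs, in bins of the summed CPM of Fos, Jun and Egr1 of the cell. The dashed line separates the members, and n is the number of cells in a bin. Socs3 runs from 24.3 CPM in the lowest bin to 898 in the highest, and Myog from 1061 to 99.7.

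Along the gate measure the same genes stood higher in steps on both sides of the threshold in MOV. From cells under 250 CPM of the gate genes (199 cells) to cells of 8000 CPM or more (28 cells), Atf3 stood at 46.4, 46.6, 66.3, 167, 265, 485 and 1109 CPM. Socs3 stood at 24.3, 25.6, 51.0, 98.4, 181, 519 and 898 CPM in the same bins, and Egr2 at 5.45, 12.9, 14.4, 29.0, 40.9, 103 and 184 CPM. The levels differed between bins below 4000 CPM as well as across it. Pax7 stood at 51.2 CPM in the lowest bin and 207 in the highest, and Myog, the factor of terminal differentiation, at 1061 and 99.7 CPM with intermediate bins between 170 and 573 CPM. Depth changed little over these bins, with a median of 20629 UMIs in the lowest and 17944 in the highest. In sham, where the bins held 3 to 20 cells, Atf3 stood at 15.3 CPM in the lowest and 2611 in the highest bin.

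Outside the early response lists, the genes with the largest ratios in MOV by the bound of their interval were Nppc (3.84), G0s2 (3.58) and Casq1 (2.89). Nppc, which encodes C-type natriuretic peptide, stood at 131 against 9.19 CPM in MOV, from 161 UMIs in 10 of the 59 members with 72 of them in 1 cell, and the ratio without that cell was 3.02. In sham Nppc stood at 3722 against 102 CPM (5.19, 4.82 to 5.57), from 156 UMIs in 7 of 8 members and with 70 in 1 cell. At 2000 UMIs per cell, Nppc had a UMI in 5 of 8 sham members against 16.7% of the others and in 7 of 59 MOV members against 2.38%. G0s2, an inhibitor of the lipase of fat droplets, was seen in 23 of 59 MOV members (80.6 against 6.77 CPM). Casq1, a calcium store protein of fibres, had 71 of 75 UMIs in 1 cell and turned to -1.12 without it. Of the 568 genes measured in both libraries, 28 were higher in MOV, 44 in sham and 16 in both, of which 13 lay outside the gate. Several of the 13 are early response or heat shock genes described elsewhere, and others were Id3 (1.45 in MOV and 2.10 in sham), an inhibitor of myogenic bHLH factors, Gem (1.21 and 1.48), a small GTPase, and Pde4b (1.18 and 2.05), a cAMP phosphodiesterase. These 3 were picked after their values had been seen.

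The genes lowest in the MOV members were genes of differentiating muscle and some others. Tnnc1 stood at 12.2 against 142 CPM (-3.49, -4.38 to -2.81), embryonic myosin Myh3 at 13.0 against 126 (-3.23), cardiac actin Actc1 at 40.7 against 307 (-2.90) and titin Ttn at 114 against 581 (-2.34). Il33, an alarmin cytokine, stood at 4.89 against 35.9 CPM (-2.76), Bex1 at 15.5 against 91.5 (-2.53) and Cst6 at 4.89 against 39.8 (-2.91). Averaging single-cell CPM in place of summing UMIs moved Tnnc1 to -1.37, Bex1 to -1.18, Cst6 to -1.88, Actc1 to -2.10 and Il33 to -0.95, under 2-fold. Krt8 had 2 UMIs in the members and a ratio of -3.66 (-7.03 to -2.12; -2.77 when averaged), and Lmo7 3 UMIs and an interval of -5.51 to -1.67. Gm28653 had 0 UMIs in the members against 26.1 CPM, at least 10.7-fold lower. Few cells carried some of these genes in the other MuSCs too: 660 of the 3133 Myh3 UMIs and 309 of the 639 Krt8 UMIs came from 1 cell each. In sham, S100a4, Iigp1, Timp1 and Hk2 had 0 UMIs in the members and were at least 12.6-fold, 5.60-fold, 4.91-fold and 4.43-fold lower. In the other sham MuSCs these genes had a UMI in 36, 30, 32 and 52 of 78 cells. A single cell carried 25.2%, 20.4%, 30.2% and 10.4% of their UMIs there, and these bounds cover counting error only.

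**Figure D5:**
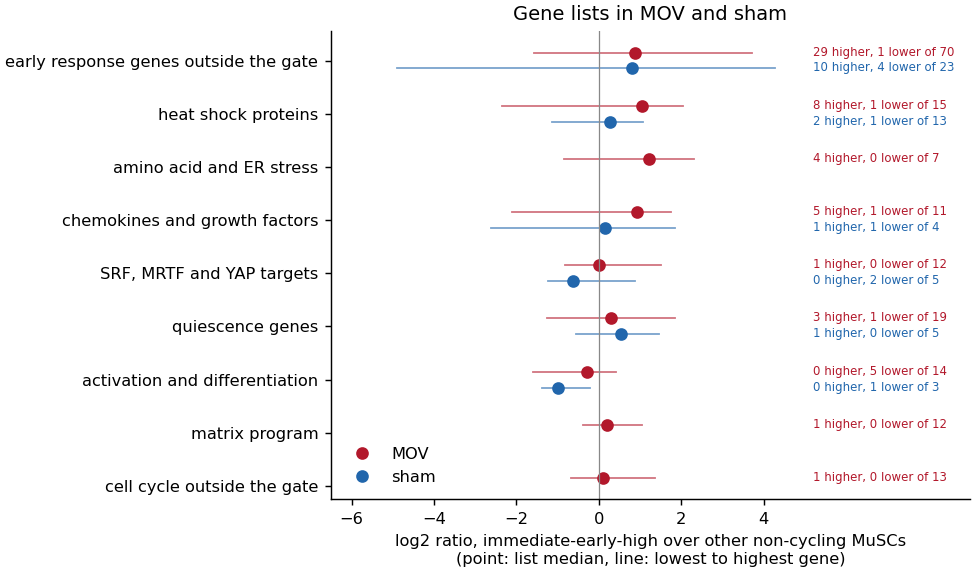
Median (point) and range (line) of the log2 ratios of the genes of each list, immediate-early-high over other non-cycling MuSCs, in MOV (red) and sham (blue), with counts of genes higher and lower by 2-fold or more. Lists with under 3 genes measured in a library have no point for it. Heat shock genes reach a median of 1.05 in MOV and 0.28 in sham.

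Heat shock genes were high in the MOV members. Of 15 chaperone genes, 8 were higher by 2-fold and 1 lower, with a median of 1.05 beside 0.05 over all genes. For this and the lists below, 3.35% of all genes measured in MOV were higher and 2.46% lower. A single gene past 2-fold is not read as a result about its list. Dnajb1 stood at 870 against 211 CPM (2.04), Hspa1b at 3302 against 897 (1.88), Hsph1 at 911 against 265 (1.78), Hspa1a at 2863 against 850 (1.75) and Hspb1 at 5207 against 1712 (1.60). The constitutive chaperone Hsp90ab1 stood at 5594 against 5130 CPM (0.13), and Hspb8 at 12.2 against 64.2 (-2.35). Summed over the list, MOV members ran from 9272 to 96513 CPM (median 32476) and the other MuSCs from 6090 to 52483 (median 17827). These ranges overlapped. In sham 2 of 13 were higher, Hspa1a (1.08) and Hspb1 (1.03), 1 lower, and the median was 0.28, with median cells of 19410 CPM in the members and 20368 in the others. Over all genes measured in sham, 7.75% were higher and 21.7% lower. The amino acid and ER stress list had 4 of 7 higher in MOV, Ddit3 (2.32), Ppp1r15a (1.92), Ddit4 (1.85) and Atf4 (1.23), and none of the 2 measured in sham. Of the chemokines and growth factors, 5 of 11 were higher in MOV and 1 lower: Cxcl10 (1.75) in 19 of 59 cells, Gdf15 (1.60) with 22 of its 34 UMIs in 1 cell, Cxcl2 (1.48), Ccl7 (1.25) and Cxcl1 (1.16), with Areg at -2.10 (4 UMIs). Of 12 targets of SRF, MRTF and YAP, Ccn1 alone was higher (1.50), and the actin genes Actb (-0.22) and Actg1 (-0.27) lay just under 0.

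Quiescence genes were mixed in the MOV members, and 5 differentiation genes were lower in summed UMIs. Of 19 quiescence genes 3 were higher, the Notch targets Heyl (120 against 33.3 CPM, 1.85) and Hes1 (183 against 77.0, 1.25) and the receptor Notch1 (83.05 against 39.1, 1.09), and the median was 0.29. For this list and those below, 3.35% of all genes measured in MOV were higher and 2.46% lower. A single gene past 2-fold is not read as a result about its list. Cdkn1c, a cell cycle inhibitor, stood at -1.27 with 232 of its 390 UMIs in the members from 1 cell. Vcam1, on which the cells were sorted per the methods, stood at 681 against 747 CPM in MOV and 668 against 706 in sham. Of 14 genes of activation and differentiation none was higher and 5 were lower, Myog (193 against 585 CPM, -1.60), Mymx (-1.56), embryonic light chain Myl4 (-1.53), Mymk (-1.25) and Tnnt2 (-1.05). The median cell was not lower, at 3561 CPM of the list in the members and 3500 CPM in the others. Myog had a UMI in 18.6% of the members and 15.2% of the others at 2000 UMIs per cell. The member rich in fibre genes carried 28 of 32, 64 of 83, 210 of 255 and 94 of 123 of the UMIs of Mymx, Mymk, Tnnt2 and Myl4, and without it and the tenocyte-rich cell, together with other MuSCs of that kind, the list median was -0.45. Cdh15, a surface cadherin of MuSCs and myoblasts, stood at 271 against 206 CPM (0.40). Of 12 matrix genes 1 was higher (Mgp, 1.05), with 949 of 2251 UMIs in 1 cell. Of 13 cell cycle genes outside the gate, Ccnd2 was higher (1.36, 24 UMIs, 15 in 1 cell), Mki67 stood at -0.23 (-0.83 to 0.28) and Ccnd1 at 0.64.

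Between the members of the 2 libraries, 568 genes were measured, of which 154 (27.1%) were higher in MOV and 52 (9.15%) lower, with a median of 0.35. The MOV members hold most of the UMIs and so decide which genes pass the limit, and with the limit on the mean rate of both groups the split turned, with 84 of 536 genes higher (15.7%) and 109 lower (20.3%). With TMM factors, which moved all ratios by -0.29, the counts were 99 and 81. No excess in either direction is read from these counts. Among the other MuSCs 896 of 6943 genes (12.9%) were higher in MOV and 444 (6.39%) lower. Matrix genes stood higher in the MOV members: Mgp, Spp1, Col1a2 and Timp1 had 0 UMIs in the sham members and were at least 25.6-fold, 19.2-fold, 6.73-fold and 7.46-fold higher in MOV, and Sparc stood at 2232 against 143 CPM (3.85). The other MuSCs had ratios of 2.81 for Mgp, 2.92 for Spp1, 2.02 for Col1a2, 1.07 for Timp1 and 1.23 for Sparc. S100a4 was at least 9.53-fold higher in the MOV members and at -0.08 in the other MuSCs. C1qtnf3 had 0 UMIs in the sham members and was at least 6.62-fold higher, Acta2 had 1 UMI and a ratio of 4.28 (2.38 to 10.2), Gadd45g 2 UMIs and a ratio of 4.05 (2.51 to 7.42), and Lgals1 24 UMIs and a ratio of 2.84.

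Nppc and several early response genes were higher in the sham members in CPM. Of 24 early response genes measured between the members, 11 were lower in MOV, beside 9.15% of all genes. Gadd45g (4.05), Klf2 (2.66) and Klf6 (2.14) were the 3 higher in MOV, beside 27.1% of all genes. With the limit on the mean rate of both groups, 19 of 31 were lower and 2 higher, beside 20.3% and 15.7%. Nppc stood at 131 CPM in MOV and 3722 in sham (-4.83), Fosb at 335 and 3769 (-3.50), Ier3 at 218 and 1598 (-2.88), Klf4 at 267 and 1598 (-2.59) and Zfp36l1 at 500 and 2314 (-2.22). The other MuSCs stood in the same direction, with -3.48 for Nppc, -1.69 for Fosb, -0.59 for Ier3, -1.27 for Klf4 and -1.15 for Zfp36l1. Apoe (-3.01), Meg3 (-2.87), Gal (-2.39), the antioxidant Gpx3 (-2.36) and Ddx5 (-2.03) were also lower in the MOV members, and in the other MuSCs they stood at -2.29, -1.82, -1.41, -1.78 and -1.12. All 8 sham members together held 41917 UMIs, fewer than the deepest single MOV member (48140), so low genes of the sham members were not detectable at this depth. Condition, library, depth and mitochondrial share moved together here, and their parts cannot be told apart.

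Pdgfra-positive cells over the same threshold shared part of the pattern. In MOV, 61 such cells over 4000 CPM of the gate genes were set against 199 under it, and 213 of 9070 genes were higher (2.35%), with 23 of 77 early response genes higher, 3 lower and a median of 0.47. Of the 29 early response genes higher in the MOV members, 17 were higher there too. Zfp36 (2.49), Egr2 (2.39), Socs3 (2.07), Klf2 (1.93) and Atf3 (1.68) were among them, each with a smaller ratio than in the MuSCs of MOV. In sham the order was mixed: Zfp36 (3.88 against 2.39), Egr2 (3.80 against 2.91) and Klf2 (2.43 against 1.86) had the larger ratio in the Pdgfra-positive cells, and Atf3 (2.45 against 4.24) and Socs3 (1.16 against 4.60) in the MuSCs, where all 5 genes were below the depth set for a call. The base differed as well, since Klf2 stood at 153 CPM in the Pdgfra-positive cells under the threshold and at 39.3 CPM in the other MuSCs. In sham 282 of 2894 genes were higher (9.74%), and 26 of 60 early response genes. The difference between the cell types was not tested.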

How the data were processed

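Single-cell RNA-seq (10x Genomics, 3′ chemistry) of sorted plantaris MuSCs was analysed from 1 sham and 1 MOV library (1100 and 3854 barcodes, 7302661 and 88498487 UMIs). The authors aligned reads to mm10 with Cell Ranger 6.0.0 and deposited filtered matrices of whole-number UMI counts for 32285 genes, without normalization. Members and gene lists were chosen with earlier results of these data known. Counts of each gene were added up within a group of cells, scaled to CPM and compared as log2 ratios with 0.5 added to the counts and exact conditional intervals. Shares have exact Clopper-Pearson intervals and CPM exact Poisson intervals. PCR duplicates are collapsed by UMIs, and all intervals cover counting error only. A count of 0 was replaced by 3 counts over the group for bounds. Genes are named as members of the early response lists, as the 2 highest and 2 lowest of other lists, as cell type markers, or as the 10 highest and 10 lowest (5 in sham) by the bound of the interval nearest 0. Genes named beyond this were chosen after their values were seen. No doublets were removed, since the rule has no such step. The methods describe a doublet gate in the sort and, in the authors' own analysis, the removal of doublets called by DoubletFinder. Cells were thinned with a fixed seed. Python 3.11.15, numpy 2.4.6, scipy 1.17.1, pandas 2.3.3, scanpy 1.11.5 (doublet scores), matplotlib 3.10.9, R 4.3.3, edgeR 4.0.16 (TMM) and DESeq2 1.42.0 (size factors) were used, the last pair for scaling factors only. The ratio was tested on Poisson counts simulated from summed UMIs. These hold no spread between cells, so the test does not cover that spread. Promoter windows came from RefSeq on GRCm38.p6, 1 per symbol, the one listed first.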

Additional observations from a re-analysis of the deposited data

Results flagged for a closer look

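Of the genes outside the rule that were measured in both libraries, 3 stood 2-fold or more higher in the immediate-early-high MuSCs of one library and 2-fold or more lower in those of the other. Cxcl2, a neutrophil chemokine, had a log2 ratio of 1.48 in MOV, with 132 of 344 UMIs in 1 cell, and of -2.62 in sham, where the members held 2 UMIs. Hsph1, a chaperone, had 1.78 in MOV and -1.13 in sham, from 5 UMIs in 3 cells. Dcn, a proteoglycan of stromal cells, had 1.33 in MOV, with 256 of 496 UMIs in 1 cell, and -1.60 in sham, where the 4 UMIs came from 1 cell. The differences between the libraries were not tested.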

How the results depend on the processing

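No paired analysis was possible because each condition has 1 library. The alternatives that leave out barcodes found in both libraries and cells rich in other markers, and the limit on the mean rate of both groups, were chosen after seeing the data. With a threshold of 3000 CPM, 8.55% of the MOV MuSCs were members. With 6000 CPM, 38 MOV cells (3.87%) were, 13.8% of the MOV Pdgfra-positive cells were over it, and in MOV the list medians were 1.18 (heat shock) and -0.76 (activation and differentiation). A mitochondrial limit of 5% left 1 sham member, with Atf3 in 0% and Socs3 in 100% of it, 22 sham genes higher and 20 lower, 22 higher and 26 lower between MOV and sham members, list medians of -1.32 (heat shock, sham), -2.42 (quiescence, sham) and -0.76 (activation and differentiation, MOV), and turned sham Nfkbia (-2.22) and Cebpd (-0.16) and, between members, Gal (2.43), with fewer cells in each. Casq1 in MOV turned to -1.02 there, to -1.18 at 6000 CPM and to -1.12 without its top cell. The quiescence median in sham was 0.085 with at least 4000 UMIs, 0.081 without shared barcodes, 0.79 with median-of-ratios factors and 0.28 with averaged cells. Between members, TMM gave 99 higher and 81 lower genes and median of ratios 93 and 91. Without a filter on low counts, MOV had 5675 genes higher and 778 lower, sham 6095 and 1408 (44 early response genes, activation median 0.34) and the members 1873 and 6139. With the limit on the mean rate of both groups, 407 genes were higher in MOV, 89 higher and 68 lower in sham (21 early response genes, median 1.63), and 84 higher and 109 lower between members. With at least 30 UMIs expected they had 100 and 73, 10 and 27 (2 early response genes), and 36 and 21. Averaged cells gave a MOV heat shock median of 0.86 and 28 sham genes higher. Thinned to 2000 UMIs, 42 genes were higher and 42 lower in MOV (12 early response genes, quiescence median -0.33), 11 and 25 in sham (4 early response genes), and 38 and 28 between members, with fewer genes measured. Without the deepest member, 28 sham genes were higher. Atf3 was seen in 100% of sham members at 4000 UMIs or unthinned and in 83.1% of MOV members unthinned, and Socs3 in MOV in 67.8% and 88.1%. The other 252 counts, shares and list medians moved by less than the counting interval or by under 1.5 times. Of the ratios of single genes over all alternatives, 1691 did not move by this measure, 268 moved and the 6 named above turned. Thinning to 2000 UMIs moved 70 and left 61 of these ratios, and averaging cells moved 45 and left 86. Ratios of single genes were therefore less stable than the counts. The 8 shallow sham members limit every sham value.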
